A study of Mus musculus with 6 samples.

Results

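Retinal ganglion cells are the output neurons of the eye, and 9 transcription factor genes that mark them or their subtypes are described here: Pou4f1, Pou4f2, Pou4f3, Eomes, Ebf1, Ebf2, Ebf3, Ebf4 and Irx2. The rule that picks them is a list of names among the 39179 genes counted in each library, and the list was drawn up with earlier results of these data known. The retinas came from mice at postnatal day 0.5 on a mixed, mainly CD-1 background. There were 3 conditional knockout (cKO) mice with floxed Lhx2 alleles and a Pdgfra-Cre transgene, and 3 controls with the same floxed alleles and no Cre. Lhx2 encodes a LIM homeodomain factor of retinal progenitors. The Cre recombinase removes floxed DNA from cells in which the Pdgfra promoter has been active, so whole cKO retinas may mix cells with and without the gene. In the series text the controls are named wild type.

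In the mouse retina, progenitors that express the bHLH factor Atoh7 can leave the cell cycle and become ganglion cells, in which Pou4f2 and the LIM homeodomain factor Isl1 switch on a network of further regulators. The POU factors, the T-box factor Eomes and the EBF factors lie in that network and set axon growth, survival and subtype. In mice most ganglion cells are born before birth. In bulk tissue, more ganglion cells and more RNA per ganglion cell cannot be told apart.

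The 250 bases before the RefSeq start site are shown for the pair of POU genes with the most reads and for Ebf3, the EBF gene with the most reads. They are also shown for Eomes, which did not pass the test of genotype that those genes passed. Eomes was not compared with those genes in a test. Capitals mark AATTAAT, the core of POU class IV sites, and CAGCTG, an E-box that bHLH factors such as Atoh7 can bind; all other letters are lower case. Each sequence is from RefSeq on GRCm38.p6 and is written 5′ to 3′ on the gene's own strand, from chr9:118477939-118478188 (Eomes, plus), chr14:104468000-104468249 (Pou4f1, minus), chr8:78436648-78436897 (Pou4f2, minus) and chr7:137314446-137314695 (Ebf3, minus).
Eomes: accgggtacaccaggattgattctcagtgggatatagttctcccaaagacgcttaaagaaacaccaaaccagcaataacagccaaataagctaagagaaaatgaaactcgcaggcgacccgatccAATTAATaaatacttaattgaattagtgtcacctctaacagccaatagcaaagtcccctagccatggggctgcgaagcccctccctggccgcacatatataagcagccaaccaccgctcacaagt
Pou4f1: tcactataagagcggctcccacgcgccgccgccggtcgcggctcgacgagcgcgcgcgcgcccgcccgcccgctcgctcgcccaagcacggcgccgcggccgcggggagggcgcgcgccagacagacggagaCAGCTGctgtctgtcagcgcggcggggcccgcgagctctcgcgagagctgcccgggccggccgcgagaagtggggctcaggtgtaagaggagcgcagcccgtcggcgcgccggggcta
Pou4f2: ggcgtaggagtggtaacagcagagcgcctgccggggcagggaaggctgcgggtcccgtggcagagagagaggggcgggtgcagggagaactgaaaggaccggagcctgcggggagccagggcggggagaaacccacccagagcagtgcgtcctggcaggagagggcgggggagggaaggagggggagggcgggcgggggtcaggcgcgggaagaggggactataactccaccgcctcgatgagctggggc
Ebf3: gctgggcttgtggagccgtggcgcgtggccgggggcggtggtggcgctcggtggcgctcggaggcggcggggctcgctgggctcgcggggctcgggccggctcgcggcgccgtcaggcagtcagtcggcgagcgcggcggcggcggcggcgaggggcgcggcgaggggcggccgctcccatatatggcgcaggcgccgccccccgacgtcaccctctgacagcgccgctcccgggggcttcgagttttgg

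Both strands were searched for AATTAAT, for TAATTA (a LIM homeodomain core, which shares letters with AATTAAT), for CAGCTG and for the palindromic EBF site. The Eomes window held AATTAAT, starting 125 bases before the start, and the Pou4f1 window held CAGCTG, starting 118 bases before it. No other match to these letters was present in these windows or in the windows of Ebf1, Ebf4 and Irx2. Of 32851 windows of the same length in the table, 2.46% held AATTAAT, 4.84% TAATTA, 13% CAGCTG and 0.779% the EBF site. The Eomes window was 46.4% G and C, below the 52.4% median of all windows. The windows of Pou4f1 (78%), Pou4f2 (70.8%), Ebf3 (80.0%), Ebf4 (75.2%) and Irx2 (68.4%) were richer in G and C than that median. Ebf1 had a pair of windows, at 40% and 52%. Windows were used for 7 of the 9 genes; Ebf2 and Pou4f3 are named only.

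The libraries carried 31483170 to 66947478 reads on genes and fell into 2 sets that cross genotype. Set A (cKO 1, cKO 2 and control 2) had over 2.9% of all deposited counts ambiguous between genes, and set B (cKO 3, control 3 and control 4) had less. The share of reads on mitochondrial genes was 7.143 to 9.553% across set B, highest in cKO 3, and 1.151 to 1.794% across set A. The part of this in the results was not tested beyond leaving those genes out, which again gave 7 rises among the 9 factors. The 9 genes had between 103 reads (Ebf2 in control 4) and 18783 reads (Ebf3 in cKO 3), so counting error was small and all 9 passed the filter on low counts. Values are CPM (gene counts over library size, scaled by TMM), and differences are log2 fold changes of cKO over control from edgeR's quasi-likelihood test, with library set as a term, with standard errors (SE) and p-values adjusted over all 16691 genes tested. A gene is said to have risen or fallen when its adjusted p was under 0.05 in that fit. Lhx2 itself was at 252, 287 and 224 CPM in cKO 1, 2 and 3, against 399, 266 and 258 CPM in controls 2, 3 and 4. Lhx2 fell by 0.40 (SE 0.10, adjusted p = 0.0338, edgeR), a call lost with no covariate (-0.27, adjusted p = 0.817), with sex as a further term (-0.34, adjusted p = 0.371) and on leaving out control 2 (-0.22, adjusted p = 0.414), control 3 (-0.42, adjusted p = 0.0794), cKO 2 (-0.41, adjusted p = 0.0602) or cKO 3 (-0.54, adjusted p = 0.0727). Which exons the floxed alleles lose is not stated in the labels, so this level does not by itself check the deletion. Among defining retinal genes, Crx was at least 353 CPM and Pax6 at least 783 CPM in every library. Of genes of the pigment epithelium, Rpe65 was at most 0.0663 CPM and Mlana at most 0.345 CPM. Others were higher: Pmel reached 12.9 CPM and Dct 8.06 CPM in cKO 2, and Mitf 6.74 CPM in cKO 3. The low level of Rpe65 thus does not show that this tissue was absent.

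Of the 9 factors, 7 rose in cKO retinas, 0 fell, and Eomes and Ebf4 did not pass the test. Over all genes tested, 6.36% rose and 5.63% fell in the same fit. The factors that rose were Pou4f1, Pou4f2, Pou4f3, Ebf1, Ebf2, Ebf3 and Irx2, by 0.82 to 1.87 on the log2 scale, and the median over the 9 was 0.88, beside 0.00 over all genes. Each of these 7 was higher in cKO 1 and cKO 2 than in control 2, and higher in cKO 3 than in controls 3 and 4; 22.9% of all genes were higher in this way within both sets and 23.8% were lower.

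Without library set in the model, 0 of the 9 passed, with 0.216% of genes called higher over the whole table, and Pou4f2 and Ebf2 alone had an unadjusted p under 0.05 (4.98% of genes were higher and 2.76% lower at that level). With sex as a further term, read from Y-linked genes that 2 controls and 0 cKO mice expressed, Ebf2 (log2 fold change 1.84, adjusted p = 0.0288, edgeR) and Ebf3 (1.26, adjusted p = 0.0244) passed, with 1.04% of genes higher and 0.377% lower. The other 5 calls were lost at log2 fold changes of 0.76 for Pou4f1 (SE 0.18), 0.99 for Pou4f2 (SE 0.21), 0.77 for Pou4f3 (SE 0.18), 0.87 for Ebf1 (SE 0.20) and 0.73 for Irx2 (SE 0.23), with adjusted p from 0.0778 to 0.172, and each SE was larger than without the sex term. Genotype and sex are thus partly confounded, and within set A the cKO mice were female and the control male.

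**Figure D1:**
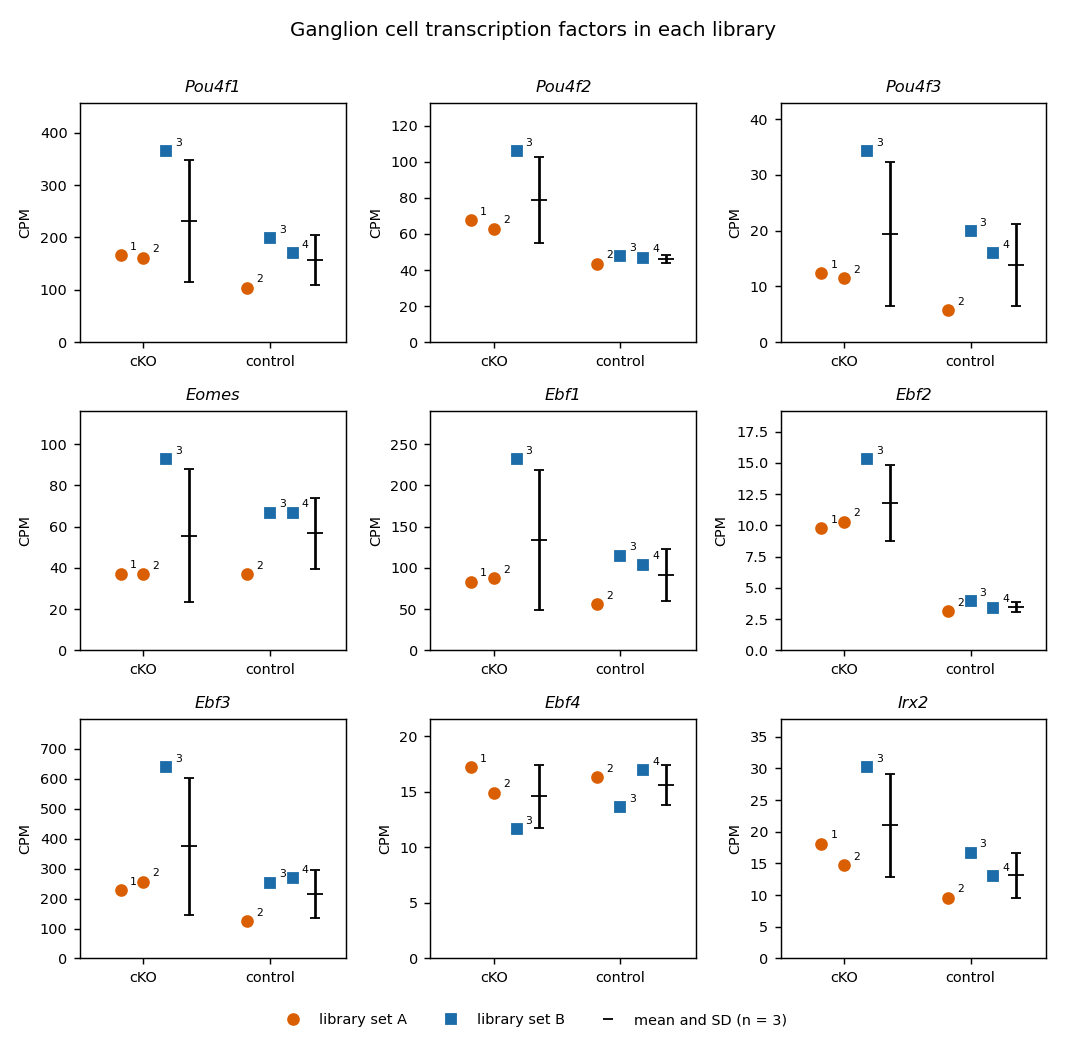
CPM of each factor in each library, with cKO left of control; points are single libraries labelled by number, circles are set A and squares set B, and the bars give the mean and SD of 3. In Pou4f2 and Ebf2 all cKO libraries stand above all controls, while in Eomes the set A libraries lie near 37 CPM in both genotypes.

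The POU4 genes encode paired POU-specific and homeodomain proteins, also called Brn3 factors. Pou4f1 (ENSMUSG00000048349; GRCm38 chromosome 14, 104461676 to 104467999, minus strand) helps to shape ganglion cell dendrites. Pou4f1 stood at 166, 161 and 365 CPM in cKO 1, 2 and 3, against 104, 198 and 170 CPM in controls 2, 3 and 4. The groups overlapped, with the set A cKO libraries below the set B controls, but within each set cKO was higher. Pou4f1 rose by 0.82 in log2 units (SE 0.10, adjusted p = 0.00219, edgeR), and cKO exceeded control by 0.65 in set A and by 0.99 in set B.

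Pou4f2 (ENSMUSG00000031688; chromosome 8, 78433010 to 78436645, minus strand) is the member needed for most mouse ganglion cells to differentiate and survive. Its values were 67.6, 63.0 and 106 CPM in cKO 1, 2 and 3, against 43.5, 47.7 and 46.9 CPM in controls 2, 3 and 4. The controls were close together and every cKO library stood above them, as was so for 8.38% of all genes tested, while 5.54% had every cKO library below every control. Pou4f2 rose by 0.88 in log2 units (SE 0.12, adjusted p = 0.00389, edgeR). The difference was 0.58 within set A and 1.17 within set B, and without cKO 3, which leaves the comparison of set A alone, the rise no longer passed (0.61, adjusted p = 0.0632). The test of set by genotype gave an unadjusted p of 0.0101 and an adjusted p of 0.975 in edgeR, so a difference between the sets was not shown.

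Pou4f3 (ENSMUSG00000024497; chromosome 18, 42394539 to 42397249, plus strand) is carried by a subset of ganglion cells and is best known for its role in the hair cells of the ear. Pou4f3 stood at 12.4, 11.5 and 34.3 CPM in cKO 1, 2 and 3, against 5.75, 19.9 and 16.0 CPM in controls 2, 3 and 4. The groups overlapped across sets and not within them. It rose by 0.99 (SE 0.13, adjusted p = 0.00265, edgeR), and cKO exceeded control by 1.05 in set A and by 0.94 in set B. Without the set term the value was 0.48 (SE 0.60, adjusted p = 0.822).

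Few reads of these genes could fit a paralog among the 9. Of the stretches of 50 bases in annotated transcripts of Pou4f1 and Pou4f2, 0.498% and 0.729% occurred in another of the 9 genes, and 0 of those of the other 7. Reads that aligned to several places were not counted on genes.

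Eomes (ENSMUSG00000032446; chromosome 9, 118478212 to 118486132, plus strand), also known as Tbr2, acts after Pou4f2 in mouse retina and is kept in intrinsically photosensitive ganglion cells. Eomes stood at 37.2, 36.8 and 92.8 CPM in cKO 1, 2 and 3, against 36.9, 66.7 and 66.8 CPM in controls 2, 3 and 4. The 3 set A libraries were level whatever their genotype, and cKO 3 stood above both set B controls. The log2 fold change was 0.24 (SE 0.11, adjusted p = 0.199, edgeR), the difference was 0.00 in set A but 0.48 in set B, and it was -0.03 (SE 0.44, adjusted p = 0.981) without the set term. Opn4, which encodes the melanopsin of those photosensitive cells, was at 5.14 to 9.30 CPM in cKO and 4.61 to 9.94 CPM in control retinas, and its log2 fold change was -0.22 (SE 0.21, adjusted p = 0.552).

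The EBF genes encode helix-loop-helix factors with a DNA-binding domain of their own. In mouse retina Ebf1, Ebf2 and Ebf3 are found in ganglion cells and also in some amacrine and bipolar cells, and Ebf1 is found outside neurons in pericytes and mesenchyme. Ebf2 (ENSMUSG00000022053; chromosome 14, 67233292 to 67430918, plus strand) had the largest difference of the 9 in this fit. Ebf2 stood at 9.78, 10.3 and 15.3 CPM in cKO 1, 2 and 3, against 3.13, 3.92 and 3.41 CPM in controls 2, 3 and 4. The groups did not overlap and the lowest cKO value was well above the highest control. Ebf2 rose by 1.87 in log2 units (SE 0.16, adjusted p = 0.000324, edgeR), a ratio of 3.67, and cKO exceeded control by 1.67 in set A and by 2.05 in set B. Without the set term it was 1.76 (SE 0.27, unadjusted p = 0.000408, adjusted p = 0.102).

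Ebf3 (ENSMUSG00000010476; chromosome 7, 137193673 to 137314445, minus strand) had the most reads of the family. It stood at 228, 257 and 639 CPM in cKO 1, 2 and 3, against 124, 253 and 269 CPM in controls 2, 3 and 4. The set A cKO libraries lay near the set B controls, so that the groups overlapped, while cKO 3 stood far above all others. Ebf3 rose by 1.13 (SE 0.10, adjusted p = 0.000382, edgeR), cKO exceeded control by 0.96 in set A and by 1.29 in set B, and Ebf3 passed without any single library (0.99 to 1.29).

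Ebf1 (ENSMUSG00000057098; chromosome 11, 44617317 to 45008091, plus strand) stood at 83.2, 87.3 and 232 CPM in cKO 1, 2 and 3, against 55.8, 115 and 104 CPM in controls 2, 3 and 4. Like Ebf3, it was highest in cKO 3 and lowest in control 2, and the groups overlapped across sets. Ebf1 rose by 0.85 (SE 0.11, adjusted p = 0.00280, edgeR), and cKO exceeded control by 0.61 in set A and by 1.09 in set B. The 10 listed pericyte and mesenchyme genes summed to 40.4 to 134 CPM in cKO and 29.3 to 31.5 CPM in control retinas. Of the 8 tested, 4 rose, beside 6.36% of all genes. Rgs5, which rose by 2.24 (SE 0.16), carried much of that sum: the other 9 genes summed to 22.7, 30.9 and 39.0 CPM in cKO 1, 2 and 3, against 24.7, 12.9 and 12.4 CPM in controls 2, 3 and 4, so that cKO 1 lay below control 2. Rgs5 was 1 of the 4 that rose, and the other rises were of pericyte genes too. The fibroblast collagen genes Col1a1 (-0.12) and Col1a2 (0.07) did not pass. Foxc2, too low to be tested, was at 0.0714, 0.166 and 0.102 CPM in cKO 1, 2 and 3. In control 2 it was at 0.0656 CPM, and controls 3 and 4 had 0 reads of it. The part of such cells in the differences of Ebf1, Ebf2 and Ebf3 was not tested.

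Ebf4 (ENSMUSG00000053552; chromosome 2, 130295169 to 130370481, plus strand), the most divergent gene of the family, stood at 17.2, 14.9 and 11.6 CPM in cKO 1, 2 and 3, against 16.3, 13.6 and 16.9 CPM in controls 2, 3 and 4. The groups overlapped, and cKO 3, highest for the other 8 genes, was lowest here. The log2 fold change was -0.20 (SE 0.15, adjusted p = 0.451, edgeR), and without cKO 3 it was 0.01 (adjusted p = 0.989).

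Irx2 (ENSMUSG00000001504; chromosome 13, 72628820 to 72634198, plus strand) is an Iroquois homeobox gene found in mouse ganglion cells. Irx2 stood at 18.1, 14.7 and 30.2 CPM in cKO 1, 2 and 3, against 9.62, 16.7 and 13.0 CPM in controls 2, 3 and 4. The groups overlapped through cKO 2 and control 3, which are of different sets. Irx2 rose by 0.90 (SE 0.15, adjusted p = 0.00696, edgeR), and cKO exceeded control by 0.76 in set A and by 1.04 in set B, and without cKO 3 the rise of 0.80 no longer passed (adjusted p = 0.128).

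**Figure D2:**
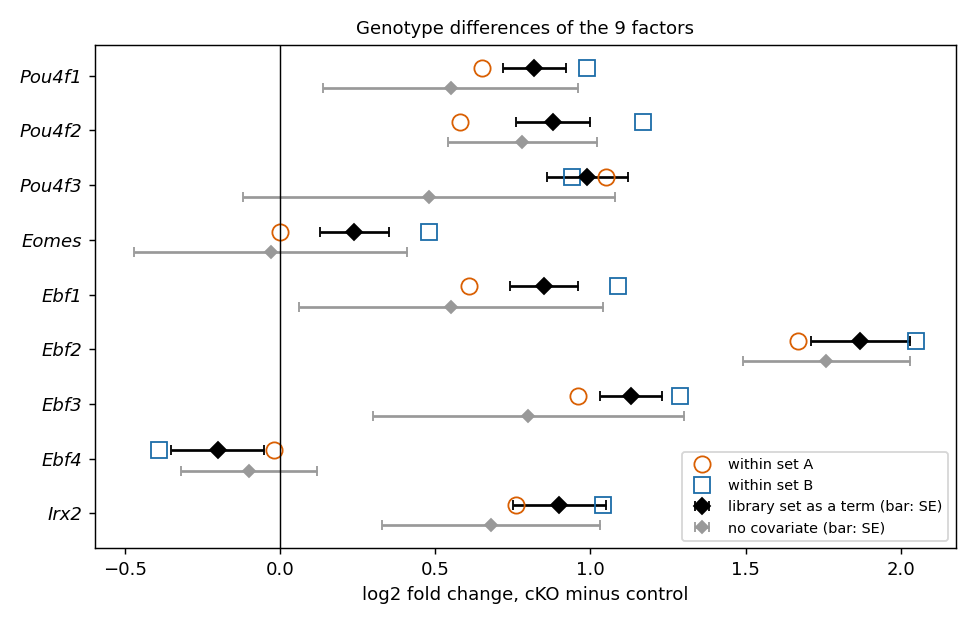
Log2 fold change of cKO over control for each factor, with library set as a term (black, bar SE), within set A (open circles) and set B (open squares), and with no covariate (grey, bar SE). The rises of the 7 called factors lie between 0.82 and 1.87 with the term, and the grey bars are wider than the black bars for each gene.

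Among fits without one library, the count moved on leaving out cKO 3: 5 of the 9 then rose, with 1.02% of all genes called higher, and Pou4f2 and Irx2 were lost. All 7 passed without any one of the other 5 libraries, with 3.26% of genes called higher without control 2, 3.17% without control 3, 3.70% without control 4, 8.15% without cKO 1 and 4.35% without cKO 2. Without control 2 the difference comes from set B alone, with cKO 3 its lone cKO library, and without cKO 3 from set A alone, with control 2 its lone control. A lone library is then assumed to vary like the others.

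For Pou4f1, Pou4f3, Eomes, Ebf1 and Ebf3 the difference between library sets was larger than that between genotypes. In set B, 8 of the 9 were higher than in set A with genotype in the model, as were 32.5% of all genes (31.2% were lower), and Ebf4 (-0.28, SE 0.15, adjusted p = 0.130) was the exception. Pou4f3 was higher in set B by 1.58 (SE 0.13), Ebf3 by 1.24 (SE 0.10), Ebf1 by 1.21 (SE 0.11), Eomes by 1.09 (SE 0.11), Pou4f1 by 0.99 (SE 0.10) and Irx2 by 0.76 (SE 0.15). Pou4f2 (0.41, SE 0.12, adjusted p = 0.0160, edgeR) and Ebf2 (0.43, SE 0.16, adjusted p = 0.0354) were least affected among those 8, and these were the factors whose groups did not overlap. A test of set by genotype passed for 0 of the 9 after adjustment (0.0240% of all genes), and 3 of them (Pou4f2, Eomes and Ebf1) had an unadjusted p under 0.05 in edgeR with a larger difference in set B, as did 2.37% of all genes.

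Levels per kilobase of exon (CPM per kb) rank the factors against each other. In control retinas Pou4f1 averaged 33.7 ± 10.3 CPM per kb, Ebf3 23.3 ± 8.60, Pou4f2 14.4 ± 0.691, Eomes 13.7 ± 4.14, Ebf1 9.38 ± 3.22, Pou4f3 5.80 ± 3.05, Ebf4 4.81 ± 0.540, Irx2 3.99 ± 1.08 and Ebf2 0.503 ± 0.0580 (SD, n = 3). Pou4f1 was above Ebf3 in each control. Ebf3 was above Pou4f2 in controls 3 and 4 but just below it in control 2 (13.4 against 13.6 CPM per kb). Pou4f2 and Eomes, Pou4f3 and Ebf4, Pou4f3 and Irx2, and Ebf4 and Irx2 changed places between controls and did not differ beyond their spread. In cKO retinas Pou4f1 (49.4 ± 25.0 CPM per kb) and Ebf3 (40.6 ± 24.9) were again first and Ebf2 (1.70 ± 0.437) again last. There Pou4f2 (24.7 ± 7.41) was above Eomes (13.4 ± 7.75) in each library.

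A ratio of reads within a library does not depend on scaling, and these pairs were chosen after their values were seen. The ratio of Ebf2 to Pou4f2 reads was 0.145, 0.164 and 0.144 in cKO 1, 2 and 3, against 0.0718, 0.0821 and 0.0728 in controls 2, 3 and 4. This ratio was near one level in each genotype, whichever set a library was in. The ratio of Eomes to Pou4f2 reads was 0.551, 0.584 and 0.873 in cKO 1, 2 and 3, against 0.848, 1.40 and 1.43 in controls 2, 3 and 4. It was lower in cKO within each set, with cKO 3 just above control 2 across sets. The ratio of Ebf1 to Ebf3 reads varied less, at 0.339 to 0.365 in cKO and 0.386 to 0.455 in control libraries. These ratios were not tested.

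**Figure D3:**
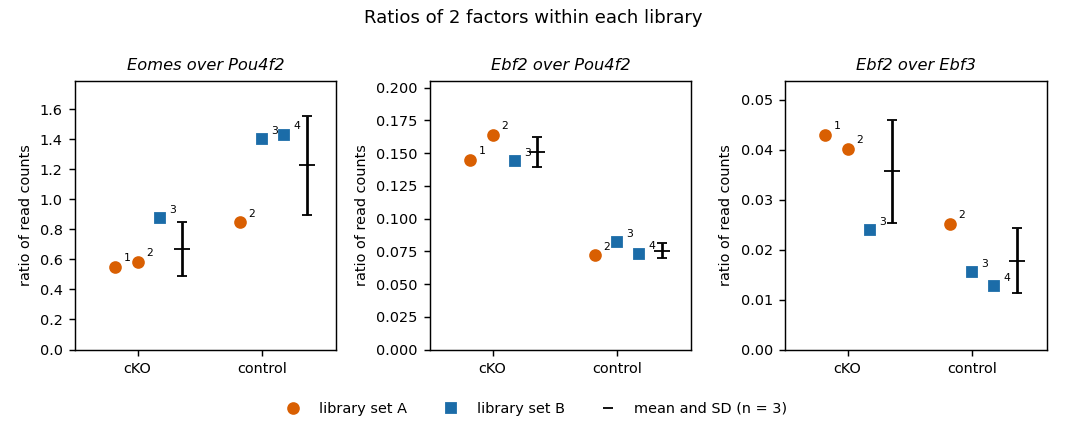
Ratio of read counts of a pair of factors within each library, with cKO left of control; points are single libraries labelled by number, circles are set A, squares set B, and the bars give the mean and SD of 3. The Ebf2 to Pou4f2 ratio lies between 0.144 and 0.164 in cKO and between 0.0718 and 0.0821 in control libraries.

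Among 28 other transcription factors of ganglion cell specification and subtypes, 9 rose, 1 fell and 18 did not pass, with a median of 0.32. Over all genes 6.36% rose and 5.63% fell, with a median of 0.00. The factors upstream of the network did not pass: Atoh7 was at 14.2, 8.80 and 2.96 CPM in cKO 1, 2 and 3, against 14.2, 5.95 and 1.92 CPM in controls 2, 3 and 4 (log2 fold change -0.36, SE 0.37, adjusted p = 0.601, edgeR). Neurog2 (-0.06, SE 0.09), Sox4 (0.00, SE 0.09) and Sox11 (0.07, SE 0.12), which act early in ganglion cell birth, did not pass either. Isl1, the partner of Pou4f2, rose by 0.56 (SE 0.15, adjusted p = 0.0424), and its relative Isl2 was at 0.40 (SE 0.12, adjusted p = 0.0553). Tbr1, a T-box factor related to Eomes and used in another group of ganglion cells, had the largest rise of this list.

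Tbr1 stood at 12.8, 13.2 and 21.0 CPM in cKO 1, 2 and 3, against 3.76, 4.58 and 7.65 CPM in controls 2, 3 and 4. The groups did not overlap, and the log2 fold change was 1.79 (SE 0.19, adjusted p = 0.00118, edgeR), and cKO exceeded control by 1.78 in set A and by 1.82 in set B. The zinc finger factor Bcl11b (0.68, SE 0.12) rose, as did the homeobox gene Dlx1 (0.69, SE 0.15), the neuronal factors Myt1 (0.34, SE 0.09) and Myt1l (0.44, SE 0.10) and the axon growth factor Klf7 (0.55, SE 0.15). Iroquois genes moved both ways: Irx4 rose by 0.66 (SE 0.15) beside Irx2, and Irx5 fell to 54.6, 67.6 and 66.4 CPM in cKO 1, 2 and 3, against 103, 105 and 94.8 CPM in controls 2, 3 and 4 (-0.68, SE 0.11, adjusted p = 0.00591). Irx1 (0.23), Irx3 (0.33) and Irx6 (0.13) did not pass. The 9 rises came to 1 without cKO 3, to 3 without control 3 or without control 4 and to 1 once sex was added to the model. In those fits 1.02%, 3.17%, 3.70% and 1.04% of all genes were called higher. The fall of Irx5 was lost without control 2, and without the set term 0 of the 28 passed.

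Ganglion cell effector genes were higher as well, with 12 of 16 rising, 0 falling and 4 not passing, and a median of 0.47. The shares over all genes were 6.36% rising and 5.63% falling. The growth cone gene Gap43 rose by 0.98 (SE 0.09, adjusted p = 0.000464, edgeR), with 579, 543 and 437 CPM in cKO 1, 2 and 3, against 312, 210 and 196 CPM in controls 2, 3 and 4. The RNA-binding gene Elavl4 rose by 0.92 (SE 0.10), the neurite growth gene Nrn1 by 0.90 (SE 0.13), the glutamate transporter gene Slc17a6 by 0.67 (SE 0.08), the filament genes Ina by 0.65 (SE 0.10), Nefm by 0.45 (SE 0.08) and Nefl by 0.42 (SE 0.09), and the microtubule regulator Stmn2 by 0.58 (SE 0.08). Rbpms (0.48, SE 0.09), Sncg (0.46, SE 0.08) and Rbpms2 (0.42, SE 0.09) also rose. So did Nhlh2 (0.57, SE 0.08), which was counted in this list although it encodes a bHLH factor. Thy1 (0.25), Nefh (0.22), L1cam (0.34) and Opn4 did not pass. All 16 summed to 3412 to 3903 CPM in cKO and 2358 to 2540 CPM in control retinas, ranges that do not overlap. The part of cells other than ganglion cells in these rises was not tested. The 12 rises came to 7 without control 2, to 8 without control 3 and to 4 without cKO 3. They came to 1 once sex was added to the model and to 0 without the set term. In those fits 3.26%, 3.17%, 1.02%, 1.04% and 0.216% of all genes were called higher.

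**Figure D4:**
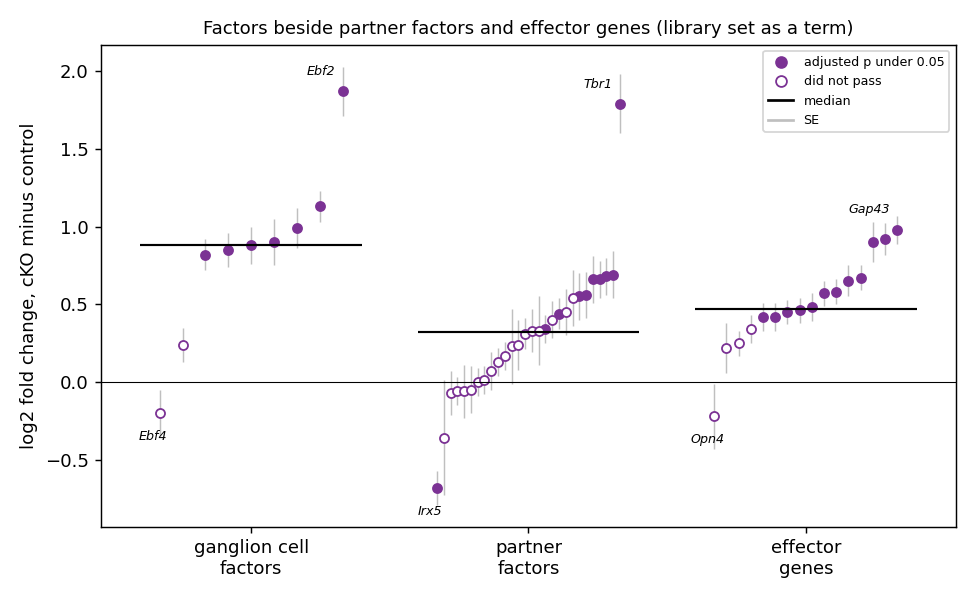
Log2 fold change of cKO over control with library set as a term for the 9 factors, the 28 partner factors and the 16 effector genes; each point is a gene in order of its value, grey bars are SE, filled points have an adjusted p under 0.05 and the line is the median. Ebf2 and Tbr1 lie highest in their lists, at 1.87 and 1.79, and Irx5 is the lowest filled point at -0.68.

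Genes of other retinal neurons were listed beside these. Over all genes tested, 6.36% rose and 5.63% fell in the same fit. Of 10 amacrine cell genes 0 rose and 1 fell (Ptf1a, a specification factor, by 0.79, SE 0.19, adjusted p = 0.0328, edgeR), with a median of -0.17 and a sum of 741 to 1528 CPM in cKO and 824 to 1735 CPM in control retinas. Of 4 horizontal cell genes the calcium buffer gene Calb1, which ganglion cells also carry, rose by 2.54 (SE 0.13), and Lhx1 (0.22), Prox1 (-0.16) and Sept4 (0.48) did not pass. The sum of those 4 was 166 to 211 CPM in cKO and 159 to 188 CPM in control retinas.

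Some markers of tissue outside the neural retina also moved with genotype, and others did not. For the counts that follow, the shares over all genes were 6.36% rising and 5.63% falling. The 12 lens genes summed to 843 to 2275 CPM in cKO and 2.63 to 5.99 CPM in control retinas, and all 10 that were tested rose. Of the 9 forebrain and hypothalamus genes, 3 of 5 tested rose: Otp by 7.15 (SE 0.42), Sim1, which had 0 reads in every control and 0.525 to 2.08 CPM in cKO, and Neurod6 by 2.54 (SE 0.30). Pomc (-0.47, SE 0.31) did not pass, and Nkx2-1 had 0 reads in 5 of the 6 libraries. The 9 genes summed to 13.0 to 30.4 CPM in cKO and 6.29 to 8.68 CPM in control retinas. Of 6 endothelial genes Pecam1 (1.70), Cdh5 (2.13), Tek (2.03) and Flt1 (1.27) rose and Kdr, which retinal progenitors also carry, fell (-0.71). Cldn5 did not pass (-0.13, SE 0.14), with a mean of 12.0 CPM in cKO and 11.6 CPM in control retinas. That list summed to 265 to 483 CPM in cKO and 531 to 703 CPM in control retinas, most of it from Kdr. The 7 pigment epithelium genes summed to 11.9 to 30.3 CPM in cKO and 8.98 to 14.6 CPM in control retinas, with 0 of 5 tested passing. Among 9 retinal identity genes 0 rose and 5 fell, among them Rax by 0.75 (SE 0.10), Six6 by 0.67 (SE 0.09), Otx2 by 0.45 (SE 0.11) and Lhx2 by 0.40 (SE 0.10), and their sum was 2547 to 3824 CPM in cKO and 3638 to 4461 CPM in control retinas. The part of any of these in the rise of the ganglion cell factors was not tested.

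Over the 6 libraries, the genes whose log2 CPM followed Pou4f2 most closely among 12856 candidates were Cnmd (Pearson r 0.9988), Mog (0.9987) and Cdh18 (0.9923). Those closest to Ebf2 were Capn3 (0.9967), Rab6a (0.9955) and Nell2 (0.9942). With 6 points that share their library sets, such values describe an order of libraries, and 58 candidates had r over 0.95 with Pou4f2 and 91 with Ebf2.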

How the data were processed

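The deposited values are raw counts of reads on each Ensembl gene, without normalization, for 6 libraries of retinal RNA (RNeasy extraction and a TruSeq kit, per the labels' protocols). STAR, HTSeq, edgeR and GRCm38 are named in the submitters' processing notes; their versions and the strand setting are not stated there, so reads from antisense genes over exons of Eomes, Ebf2 and Ebf3 cannot be told apart (that over Ebf2 had 0 reads). Libraries were taken as separate animals, 3 per group per the series text.

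The 5 rows that name no gene held 26.41 to 28.76% of counts and were left out. Symbols, positions and exon lengths came from GENCODE vM21 on GRCm38 (37607 of 39179 identifiers matched; the rest held 0.237% of counts). In R 4.3.3 with edgeR 4.0.16, genes were kept by filterByExpr, scaled by TMM and fitted with glmQLFit on library set and genotype (3 residual degrees of freedom, common dispersion 0.0176; 0.157 without library set); p-values were adjusted by Benjamini-Hochberg. Library set comes from the share of ambiguous counts, not from the labels. The test was checked on simulated counts. SE is the fold change over the root of F; within-set differences are of mean log2 CPM with a prior count of 2.

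Members and lists were chosen with earlier results of these data known. Named were all members, list genes past the threshold or among the 4 of smallest p, and other list genes where stated with their values, chosen after these were seen. Alternatives were other scalings and filters, other covariates, DESeq2 1.42.0, limma-voom (limma 3.58.1), other thresholds and leaving out each library. Between libraries of the same group, chi-square per degree of freedom was 23.0 to 532, far above counting noise, and each was kept as a replicate. Some members of the lists are counted but not reported by name here.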

Additional observations from a re-analysis of the deposited data

How the results depend on the processing

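The 7 rises among the 9 factors became 0 with no covariate and 2 with sex as a further term. They ranged from 5 to 7 over fits without one library, and were 7 under each of the other alternatives. Eomes turned to -0.03 with no covariate and Ebf4 to 0.01 without cKO 3 (-0.39 to 0.01 over fits without one library). Other scalings moved the median of all genes by at most 0.04. With no covariate, the partner factors gave 0 rises and 0 falls, the effector genes 0 rises, and all genes 36 rises and 0 falls (1292 genes at an unadjusted p under 0.05). With sex as a further term these were 1 and 0, 1, and 173 and 63. Without one library, partner rises ran from 1 to 10 and falls from 0 to 1, effector rises from 4 to 13, and rises of all genes from 176 to 1371 and falls from 134 to 1336. At adjusted p under 0.01 there were 2 partner rises, 379 rises and 281 falls over all genes, and at 0.1 there were 1425 falls. With no filter 1592 genes fell, and with DESeq2 1672.

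The label number as a replicate block gave 7 rises among the factors and 2 falls among the partner factors. That fit had 1 residual degree of freedom. Since cKO 1 and control 4 have no partner of the same number, its genotype difference rests on numbers 2 and 3. Numbers 2 and 3 are shared by both genotypes, and libraries of the same number are of the same set: their deviations from group means correlated at 0.77 and 0.67, beside 0.71 for cKO 1 with control 2 and 0.67 for cKO 3 with control 4, so the number cannot be told from the set. The block with library set as a further term could not be fitted, since the number fixes the set. Depth was not the limit for the factors, the least of which had 103 reads; with 3 residual degrees of freedom, differences of the size of Eomes may be missed.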
